A study of Mus musculus with 45 samples.

Results

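The 8 mouse genes of the troponin subunits were followed through heart development: Tnni3, Tnni1 and Tnni2 for troponin I, Tnnt2, Tnnt1 and Tnnt3 for troponin T, and Tnnc1 and Tnnc2 for troponin C. They were taken by their symbols in the platform annotation, a rule that uses no measured value, and all 8 were measured, among 18193 genes in all. Of their 12 probe sets, each gene is represented by its brightest, judged by the mean of all 45 arrays. The 45 Affymetrix arrays formed 15 groups of 3. One group was a culture of a single mouse embryonic stem cell line, R1 (ESC). The tissue came from wild type CD1 mice, with no treatment named: whole embryos of embryonic day 7.5 (E7.5), then the undivided heart tube of E8.5. Ventricles, split into left and right, followed at the later embryonic stages (E9.5, E12.5, then E14.5, then E18.5), at day 3 of postnatal life and in adults. Each replicate was a pool until birth, of 30 to 50 specimens through E9.5, of 10 to 20 hearts for E12.5 or E14.5, and of 3 to 5 for E18.5, whereas a single heart (1) made up a day 3 or adult replicate.

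Troponin is the calcium switch of the thin filament. Troponin C binds calcium, troponin I holds back the interaction of actin and myosin while calcium is low, and troponin T ties the complex to tropomyosin. Each subunit has isoforms named for the muscle in which they prevail. Tnni3 and Tnnt2 encode the cardiac forms of troponin I and T, Tnni1 and Tnnt1 the slow skeletal forms, and Tnni2, Tnnt3 and Tnnc2 the fast skeletal forms, while Tnnc1 serves cardiac and slow skeletal muscle alike. The hearts of fetal mammals are known to contain the slow skeletal troponin I, which gives way to the cardiac form around and after birth.

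The values are log2 RMA values, in which a step of 1 is a 2-fold difference of signal. They ran from 2.07 to 15.18, with a median over all values of 5.41. Levels are compared here within a gene and not between genes, because each probe set has its own brightness. In bulk tissue, fewer cells of a type and less RNA per cell cannot be told apart. The labelled tissues carried their markers: 11 cardiomyocyte genes such as Myh6 and Ttn had a mean of 5.46 to 5.58 on the ESC arrays, 5.12 to 5.28 at E7.5, 11.43 to 11.79 at E8.5 and 12.18 to 13.88 on the ventricle arrays. On 5 arrays the mean of a marker list for other cells lay over 0.75 above the other replicates of its group. They were E7.5 replicate 2 (fibroblast and endothelial lists), E14.5 left ventricle replicate 2 (skeletal muscle list), adult left ventricle replicate 2 (atrial list), adult right ventricle replicate 2 (fibroblast list) and adult right ventricle replicate 3 (atrial list).

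The 8 genes took different courses. Tnnt2 and Tnnc1 stood at 13.94 or above in every group mean from E8.5 to the adult, and Tnni3 climbed toward the adult from 11.44 at E8.5. Tnni1 stood between 13.85 and 14.47 in its stage means from E8.5 to day 3 and was back near its ESC level in the adult. Tnnt1 peaked at E12.5 and E14.5, and the fast skeletal genes had their highest group means in E9.5 right ventricles for Tnni2 (10.29), in the heart tube for Tnnt3 (6.87) and in E14.5 left ventricles for Tnnc2 (8.68). Of the 15 group means, 10 lay below the median of all values for Tnnt3, 3 each for Tnni1 and Tnnc2, 2 each for Tnni3 and Tnni2, 1 for Tnnt2, and 0 for Tnnt1 and Tnnc1. In the order of the 15 group means, neighbouring groups shared part of their range in 3 of 14 pairs for Tnni3, 6 for Tnnc1, 7 for Tnni1, 8 for Tnnt2, 9 for Tnnt1, 11 for Tnni2 and 13 each for Tnnt3 and Tnnc2.

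**Figure D1:**
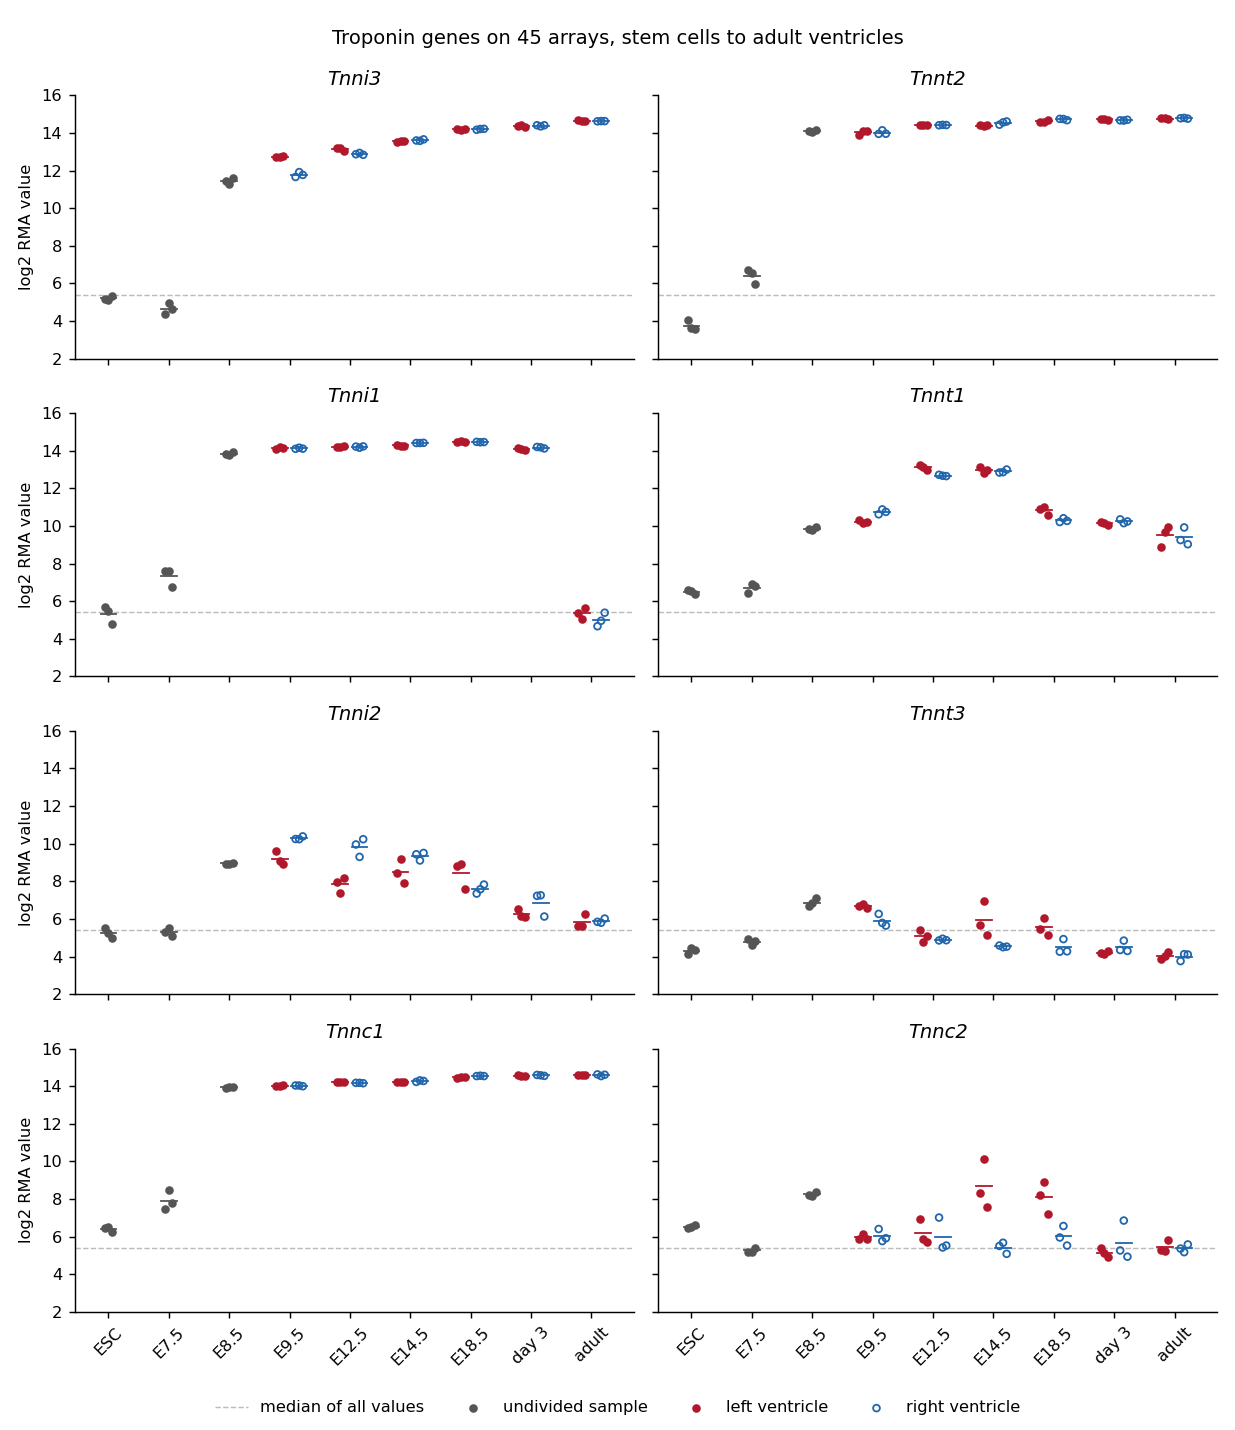
Log2 RMA values of the 8 troponin genes on all 45 arrays, by stage (x axis), with left ventricle points left of right ventricle points, a bar at each group mean and a dashed line at 5.41, the median of all values. Tnni1 is low again in the adult, Tnnt1 peaks at E12.5 and E14.5, and Tnnc2 stands apart in left ventricles at E14.5 and E18.5.

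Each stage was set against the one before it with limma, both ventricles of a replicate number averaged first (n = 3 per stage), and a gene was called at a Benjamini-Hochberg adjusted p under 0.05 over all 18193 genes. At E7.5 against ESC, 6 of 8 troponin genes were called, 4 higher and 2 lower, where 49.4% of all genes were called. At E8.5 against E7.5 all 8 were higher, against 48.6% of all genes called in either direction, and the median change of the 8 was 4.83 on the log2 scale beside -0.06 over all genes. The following steps called fewer: 5 at E9.5 (3 higher, 2 lower; 26.9% of all genes), 5 at E12.5 (3 higher, 2 lower; 38.1%), 1 at E14.5 (higher; 13.3%), 3 at E18.5 (1 higher, 2 lower; 30.6%), 3 at day 3 (all lower; 20.2%) and 4 in the adult (1 higher, 3 lower; 48.8%). Over the whole ventricular course, adult against E9.5, 7 were called, 3 higher and 4 lower, where 74.6% of all genes were.

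All groups share 1 estimate of a gene's spread, so that a bright gene can separate 2 stages without overlap and not be called. Tnni3 did so at day 3, with 14.38 ± 0.02 against 14.20 ± 0.02 at E18.5 (SD, n = 3 each; difference 0.18, adjusted p = 0.231 in limma). In a fit of these stages alone it was called (adjusted p = 0.0371 in limma).

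**Figure D2:**
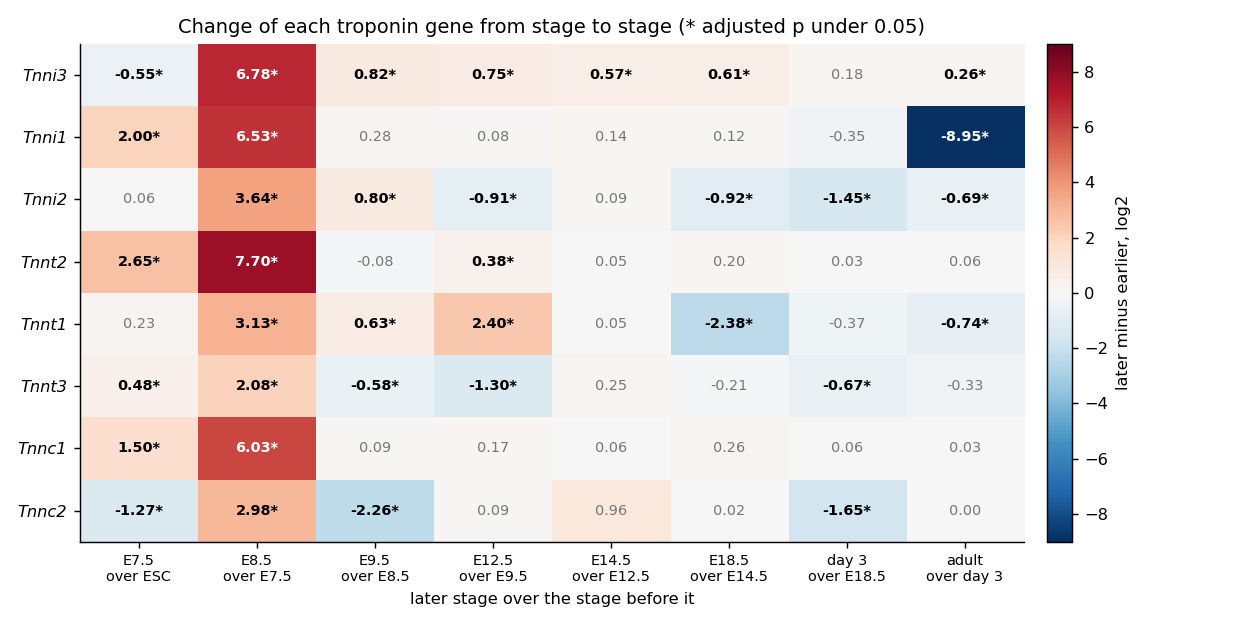
Change of each troponin gene (rows) from each stage to the next (columns), later minus earlier on the log2 scale, with an asterisk and bold type where limma's adjusted p was under 0.05. The E8.5 column is positive in all 8 rows, and the largest fall is that of Tnni1 in the adult, -8.95.

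From the whole embryo to the heart tube Tnnt2, Tnni3, Tnni1 and Tnnc1 each rose by more than 6 units on the log2 scale. Tnnt2, the cardiac troponin T, read 14.11, 14.04 and 14.18 in the E8.5 heart tubes and 6.74, 6.55 and 5.95 in the E7.5 embryos, a rise of 7.70 ± 0.13 (SE), or 208-fold (limma, adjusted p = 5.76e-23). Tnni3, the cardiac troponin I, read 11.45, 11.28 and 11.60 at E8.5 and 4.35, 4.97 and 4.66 at E7.5, 110-fold higher (adjusted p = 4.6e-24 in limma). Its E7.5 level lies below the median of all values, where RMA compresses differences, so this fold is that of the deposited values. Both gaps were many times the spread of the replicates.

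Tnni1, the slow skeletal and fetal troponin I, read 13.82, 13.79 and 13.94 in the heart tubes against 7.61, 7.60 and 6.74 in the embryos, and rose 92.6-fold. Tnnc1, the troponin C of cardiac and slow muscle, read 13.90, 13.96 and 13.96 at E8.5 against 7.48, 8.49 and 7.77 at E7.5, a 65.2-fold rise. The remaining genes rose less: Tnni2 by 3.64 ± 0.21, Tnnt1 by 3.13 ± 0.13, Tnnc2 by 2.98 ± 0.36 and Tnnt3 by 2.08 ± 0.19 (log2, SE). Fast skeletal forms were thus also higher in the heart tube than in the whole embryo, where the list of 20 skeletal muscle markers had a mean of 5.24 to 5.30 at E8.5 and 4.60 to 4.67 at E7.5. Of these markers 6 rose and 1 fell at this step, where 48.6% of all genes were called, and their part in the rise of the fast troponins was not tested.

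Some troponin genes were already higher in E7.5 embryos than in ESC. Tnnt2 read 6.41 ± 0.41 in embryos and 3.76 ± 0.28 in ESC (SD, n = 3 each), a rise of 2.65 ± 0.13 (SE). Tnni1 rose by 2.00 ± 0.19, Tnnc1 by 1.50 ± 0.14 and Tnnt3 by 0.48 ± 0.19, the last with an adjusted p of 0.0399 in limma that rose above 0.05 without ESC replicate 1 or 3 or E7.5 replicate 1 or 3 (0.0707 to 0.148). Tnni3 fell by 0.55 ± 0.10 and Tnnc2 by 1.27 ± 0.36. Tnni2 and Tnnt1 differed by 0.06 and 0.23 and were not called.

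The promoters of the genes that rose most at E8.5 are shown with that of Tnnt1, which rose less at E8.5, rose again at E12.5 and fell at E18.5, so that their letters can be set beside the courses. Each runs from 250 bases before to 50 bases after a transcript start and comes from RefSeq (build GRCm38.p6), which listed 6 of the 8 genes. Of Tnni1 and Tnnt2, which have 2 listed starts, the first is given. The Tnni1 window lies inside the span of its gene (chr1:135783033-135810989) and does not reach that span's first base. The start used for Tnni3 also lies inside its gene's span (chr7:4518305-4522718) and not at its end. Capitals mark matches to the 6 motifs searched on both strands.
Tnnt2 (chr1:135836084-135836383, + strand): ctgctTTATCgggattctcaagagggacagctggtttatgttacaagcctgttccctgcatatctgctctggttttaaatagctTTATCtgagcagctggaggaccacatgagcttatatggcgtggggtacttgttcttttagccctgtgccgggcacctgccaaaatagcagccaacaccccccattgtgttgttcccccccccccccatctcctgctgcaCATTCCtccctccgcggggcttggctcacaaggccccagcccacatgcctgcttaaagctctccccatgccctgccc
Tnni3 (chr7:4522479-4522778, - strand): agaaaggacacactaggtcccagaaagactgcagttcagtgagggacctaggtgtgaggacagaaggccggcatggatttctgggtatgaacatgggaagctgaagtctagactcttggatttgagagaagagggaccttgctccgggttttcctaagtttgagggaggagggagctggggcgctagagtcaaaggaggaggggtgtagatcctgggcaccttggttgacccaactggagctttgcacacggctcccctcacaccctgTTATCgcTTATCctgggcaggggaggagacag
Tnni1 (chr1:135799171-135799470, + strand): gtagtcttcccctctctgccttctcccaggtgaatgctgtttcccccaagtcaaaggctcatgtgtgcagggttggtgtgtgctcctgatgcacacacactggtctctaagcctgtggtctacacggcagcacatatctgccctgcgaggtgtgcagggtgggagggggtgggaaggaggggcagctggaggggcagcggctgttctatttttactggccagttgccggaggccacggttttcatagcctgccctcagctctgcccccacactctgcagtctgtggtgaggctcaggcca
Tnnc1 (chr14:31208062-31208361, + strand): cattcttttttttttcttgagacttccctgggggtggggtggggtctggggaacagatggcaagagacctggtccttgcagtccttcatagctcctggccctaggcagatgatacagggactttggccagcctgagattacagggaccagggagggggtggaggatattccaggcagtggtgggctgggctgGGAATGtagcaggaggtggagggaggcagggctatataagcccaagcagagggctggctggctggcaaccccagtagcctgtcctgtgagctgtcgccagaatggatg
Tnnt1 (chr7:4515926-4516225, - strand): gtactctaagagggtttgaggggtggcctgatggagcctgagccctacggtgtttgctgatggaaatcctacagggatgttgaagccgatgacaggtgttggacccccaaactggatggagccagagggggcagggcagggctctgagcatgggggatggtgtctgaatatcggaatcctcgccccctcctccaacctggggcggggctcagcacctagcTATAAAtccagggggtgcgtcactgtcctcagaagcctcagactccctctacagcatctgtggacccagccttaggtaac

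The motifs were GATAA (the core bound by GATA factors, in 25.4% of 32851 promoters of this length), CATTCC (the core of the M-CAT element bound by TEAD factors, 14.7%), AGGTCA (a nuclear receptor element, 16.3%), TATAAA (the TATA box, 13.6%), the CArG box of serum response factor (1.63%) and the MEF2 site (3.19%). Tnnt2 held GATAA at positions -245 to -241 and -166 to -162 from the start and CATTCC at -27 to -22. Tnni3 held GATAA at 19 to 23 and at 26 to 30 after the start. Tnnc1 held CATTCC at -58 to -53, and Tnnt1 held TATAAA at -30 to -25. The windows of Tnni1 and Tnnc2 held none of the 6 motifs. These matches describe the letters of the windows and no binding.

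Among the troponin I genes, cardiac Tnni3 rose at nearly every step while slow skeletal Tnni1 moved little until it fell in the adult. The stage means of Tnni3 were 11.44 at E8.5, 12.27 at E9.5, 13.02 at E12.5, 13.59 at E14.5, 14.20 at E18.5, 14.38 at day 3 and 14.64 in the adult, with SDs of 0.16 or less. The rises were 0.82 at E9.5, 0.75 at E12.5, 0.57 at E14.5 and 0.61 at E18.5 (SE 0.10 each; limma, adjusted p from 1.83e-06 to 0.000568). From day 3 to the adult Tnni3 rose by 0.26 ± 0.10 (SE; adjusted p = 0.0375 in limma), and adult ventricles were 5.19-fold higher than E9.5 ventricles. The adult call did not hold when any of the 6 replicates of day 3 or the adult was left out (adjusted p 0.0654 to 0.0876), although the change stayed between 0.25 and 0.27.

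Tnni1 read 5.36, 5.05 and 5.64 in adult left ventricles and 4.67, 4.96 and 5.39 in adult right ventricles, against 14.13, 14.07 and 14.06 in left and 14.20, 14.18 and 14.12 in right ventricles at day 3. All 6 adult arrays lay more than 8 units below all 6 day 3 arrays. The fall of 8.95 ± 0.19 on the log2 scale (SE; 494-fold; limma, adjusted p = 4.41e-21) brought the gene to 5.18 ± 0.29, against 5.31 ± 0.48 in ESC (SD, n = 3). Leaving out any single replicate gave changes of -9.12 to -8.86. Since the adult level lies near the median of all values, the fold is that of the deposited values.

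Before that, Tnni1 moved little: its stage means were 13.85 at E8.5, 14.13 at E9.5, 14.21 at E12.5, 14.35 at E14.5 and 14.47 at E18.5, and no step between them was called. Each step was a rise without overlap, of 0.08 to 0.28. In the compared groups alone the E9.5 rise was called (adjusted p = 0.031 in limma). At day 3 Tnni1 stood at 14.13 ± 0.04, against 14.47 ± 0.00 at E18.5, without overlap (difference -0.35, adjusted p = 0.219 in limma). Fitted on these stages alone, that difference was called (adjusted p = 0.00203 in limma). From E9.5 to day 3 the values of Tnni1 lay close to the highest value of the table, 15.18, as did those of Tnnt2 and Tnnc1 from E9.5 to the adult and of Tnni3 from E18.5 on, where a change in RNA can read as a smaller change in signal.

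Tnni2, the fast skeletal troponin I, declined over the ventricular course. Its stage means were 8.95 at E8.5, 9.75 at E9.5, 8.84 at E12.5, 8.93 at E14.5, 8.02 at E18.5, 6.57 at day 3 and 5.87 in the adult, beside 5.25 in ESC. It rose by 0.80 ± 0.21 at E9.5 and fell by 0.91 at E12.5, 0.92 at E18.5, 1.45 at day 3 and 0.70 in the adult (SE 0.21 each), so that adult ventricles were 14.7-fold lower than E9.5 ventricles (limma, adjusted p = 3.07e-14). The E12.5 fall was not called in right ventricles alone (-0.46, adjusted p = 0.142 in limma), nor the E18.5 fall in left ventricles alone (-0.07, adjusted p = 0.904 in limma). The adult fall, in which the arrays overlapped, was lost without day 3 replicate 1 (-0.53, adjusted p = 0.0571 in limma) and in left ventricles alone (-0.40, adjusted p = 0.326). With arrays scaled to housekeeping genes it was -0.26 (adjusted p = 0.262 in limma). Of these 9 genes 8 were themselves called lower in the adult against day 3 (48.8% of all genes called), so scaling raised adult values here and below.

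Among the troponin T genes, cardiac Tnnt2 rose by less than 1 unit from E9.5 to the adult, and slow skeletal Tnnt1 rose and fell. The stage means of Tnnt2 were 14.11 at E8.5, 14.03 at E9.5, 14.41 at E12.5, 14.46 at E14.5, 14.67 at E18.5, 14.70 at day 3 and 14.76 in the adult. Its rise of 0.38 ± 0.13 at E12.5 was called (adjusted p = 0.0266 in limma), but not without E9.5 replicate 1 or 3 or without any of the E12.5 replicates (0.33 to 0.39, adjusted p 0.0575 to 0.103). Over the whole course the rise of Tnnt2 was 0.73 ± 0.13, or 1.66-fold (adjusted p = 3.16e-05 in limma).

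Tnnt1 read 13.25, 13.13 and 12.95 in left and 12.72, 12.67 and 12.65 in right ventricles at E12.5, against 10.30, 10.18 and 10.20 in left and 10.62, 10.88 and 10.75 in right ventricles at E9.5. All E12.5 arrays were higher than all E9.5 arrays, by 2.40 ± 0.13 on average (SE; 5.3-fold; limma, adjusted p = 2.74e-12). At E14.5 the mean was 12.94 ± 0.08 (SD, n = 3), not called against E12.5. Fibroblast markers moved with the rise: all 7 were called higher at E12.5 (38.1% of all genes called), and their mean was 10.71 to 11.63 on the E12.5 arrays against 7.92 to 8.61 on the E9.5 arrays. At E18.5, when Tnnt1 fell, 0 of the 7 markers rose and 1 fell, where 30.6% of all genes were called. The mean of these markers was then 11.38 to 12.11, against 11.28 to 12.08 at E14.5. Their part in the course of Tnnt1 was not tested.

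At E18.5 Tnnt1 read 10.88, 11.02 and 10.60 in left and 10.21, 10.41 and 10.27 in right ventricles, against 13.14, 12.84 and 12.96 in left and 12.84, 12.86 and 13.00 in right ventricles at E14.5. The fall of 2.38 ± 0.13 (SE; 5.19-fold; limma, adjusted p = 8.09e-12) separated all arrays of the stages, and leaving out any single replicate gave changes of -2.45 to -2.31. Tnnt1 then stood at 10.19 ± 0.08 at day 3 (fall of 0.37, adjusted p = 0.0515 in limma, not called; called in left ventricles alone at -0.69, adjusted p = 0.0088, and in the compared groups alone, adjusted p = 0.00965) and at 9.45 ± 0.36 in the adult, a further fall of 0.74 ± 0.13 from day 3. It was called with any single replicate left out (-0.92 to -0.55). With arrays scaled to housekeeping genes it was -0.31 (adjusted p = 0.0395 in limma).

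Tnnt3, the fast skeletal troponin T, was highest in the heart tube, at 6.68, 6.85 and 7.09, and fell by 0.58 ± 0.19 at E9.5 and by 1.3 ± 0.19 at E12.5 (SE; limma, adjusted p = 0.025 and 7.26e-06). The E9.5 call was lost without E8.5 replicate 2 or 3 or E9.5 replicate 2 or 3 (adjusted p 0.052 to 0.113). Its mean was 4.99 at E12.5, 5.24 at E14.5, 5.03 at E18.5, 4.36 at day 3 and 4.02 in the adult. The gene fell by 0.67 ± 0.19 at day 3. Right ventricles alone differed by 0.01 (adjusted p = 0.982 in limma). The call was lost without E18.5 replicate 2 or day 3 replicate 1.

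Among the troponin C genes, Tnnc1 stayed between 13.94 and 14.60 from E8.5 to the adult, with no step called. With arrays scaled to housekeeping genes Tnnc1 was called higher at E18.5 (0.43, adjusted p = 0.0317 in limma) and in the adult against day 3 (0.47, adjusted p = 0.00819), and in the compared groups alone at E12.5 (0.17, adjusted p = 0.0461) and at E18.5 (0.26, adjusted p = 0.00759). Its adult ventricles read 14.60 ± 0.02 and E9.5 ventricles 14.03 ± 0.01 (SD, n = 3 each), a called rise of 0.57 ± 0.14 (SE; adjusted p = 0.000823 in limma). Tnnc2, the fast skeletal troponin C, read 5.86 to 6.17 in left and 5.77 to 6.41 in right ventricles at E9.5, against 8.21, 8.16 and 8.40 in the heart tubes. The gene fell by 2.26 ± 0.36 at this step (SE; 4.78-fold; limma, adjusted p = 4.05e-05), with no overlap between the groups. Later stage means were 6.09 at E12.5, 7.05 at E14.5, 7.07 at E18.5, 5.42 at day 3 and 5.42 in the adult, with SDs of 0.25 to 0.80.

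The rise of Tnnc2 at E14.5, 0.96 ± 0.36, was not called (adjusted p = 0.08 in limma), but it was in left ventricles alone (2.48, adjusted p = 0.000625) and without E12.5 replicate 1 (1.41) or E14.5 replicate 3 (1.32). The fall at day 3, 1.65 ± 0.36 (adjusted p = 0.00178 in limma), was not called in right ventricles alone (-0.33, adjusted p = 0.637). These averages thus join ventricles that differed.

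Left was set against right at each of 6 stages in a limma fit of all 45 arrays (left minus right, n = 3 each). Of the 8 troponin genes 2 were called at E9.5, 1 higher and 1 lower in left, where 3.5% of all genes were. At E12.5 it was 1 (lower; 1.26% of all genes), at E14.5 2 (both higher; 8.51%) and at E18.5 2 (both higher; 4.95%). At day 3 and in the adult 0 were called by limma, where 0.0055% and 0.0165% of all genes were, and 580 and 1127 genes had an unadjusted p under 0.05. Averaged over the 6 stages 4 of 8 were called, 3 higher and 1 lower in left, where 2.97% of all genes were. An F-test over the stages called 5 of 8 as differing in left against right from stage to stage, against 5.85% of all genes.

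**Figure D3:**
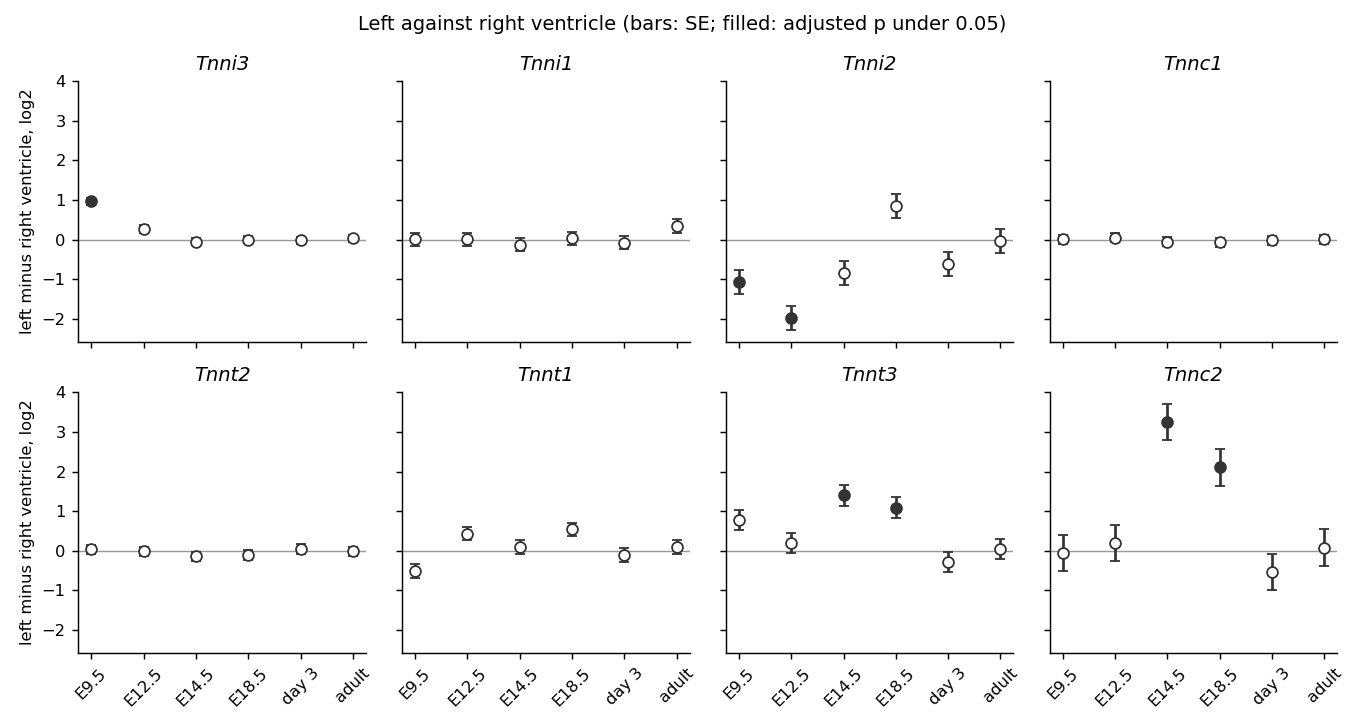
Left minus right ventricle for the 8 troponin genes at 6 stages, in log2 units, with bars for the SE of the limma fit and filled points where the adjusted p was under 0.05. Tnni3 differs at E9.5, Tnni2 at E9.5 and E12.5, and Tnnt3 and Tnnc2 at E14.5 and E18.5, while Tnni1, Tnnt2 and Tnnc1 are called at no stage.

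Tnni3 was higher in the left ventricle at E9.5, the earliest stage at which the ventricles were split. It read 12.74, 12.71 and 12.79 in left ventricles at E9.5, against 11.66, 11.92 and 11.77 in right ventricles. All left arrays were higher, by 0.96 ± 0.09 (SE; 1.95-fold; limma, adjusted p = 2.46e-09).

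At E12.5 the left arrays of Tnni3 were 13.18, 13.21 and 13.06, and the right arrays 12.87, 12.94 and 12.84, again apart but not called (0.27 ± 0.09, adjusted p = 0.248 in limma). From E14.5 on the difference was between -0.05 and 0.03. The F-test called the change over stages (adjusted p = 4.71e-06). At E9.5 the mean of the 6 genes listed as atrial markers was also higher in left ventricles, 10.40 to 10.44 against 9.91 to 10.02 in right. Of the 6, 1 was called, Bmp10, higher in left by 0.89, where 3.5% of all genes were called. Of the others, not called, Nppa differed by 1.43 and Stard10 by 0.54, while Myl4 differed by 0.06, Myl7 by -0.02 and Sln by -0.12. Myl4, Myl7 and Nppa read 12.72 or more on every E9.5 array of either ventricle, so at this stage the list does not single out atrial tissue. The part of the listed genes in the Tnni3 difference was not tested.

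Tnni2 ran the other way. At E9.5 it read 9.63, 9.06 and 8.94 in left and 10.25, 10.24 and 10.39 in right ventricles, and at E12.5 it read 7.96, 7.39 and 8.2 in left and 9.96, 9.30 and 10.24 in right ventricles. Left arrays were lower without overlap at both stages, by 1.08 ± 0.30 at E9.5 (adjusted p = 0.0346 in limma) and by 1.98 ± 0.30 at E12.5 (SE; 3.95-fold; limma, adjusted p = 6.47e-05). The E9.5 call was lost when left replicate 2 or 3 or any right replicate was left out (adjusted p 0.062 to 0.191), and the E12.5 call held without any single array.

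At E14.5 Tnni2 read 8.43, 9.20 and 7.90 in left and 9.44, 9.11 and 9.51 in right ventricles, which overlapped (-0.85, adjusted p = 0.0754 in limma). Without left replicate 2 the left ventricle was lower by 1.19 (adjusted p = 0.0372 in limma). At E18.5 the sign turned, with 8.84, 8.90 and 7.59 in left and 7.35, 7.58 and 7.83 in right ventricles, not called (0.86, adjusted p = 0.0941 in limma). Without left replicate 3 that difference was 1.28 and called (adjusted p = 0.00389 in limma). With the mean of all Tnni2 probe sets, left minus right was called at both stages. It was -0.58 at E14.5 (adjusted p = 0.0197 in limma) and 0.55 at E18.5 (adjusted p = 0.038). At day 3 left minus right was -0.62 and in the adult -0.04, neither called.

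Tnnt1 was not called at any single stage, yet the F-test called its change over stages (adjusted p = 0.0401), a call that the removal of many single arrays ended. Left ventricles stood below right at E9.5 (10.23 ± 0.07 and 10.75 ± 0.13, SD, n = 3 each) and above at E18.5 (10.83 ± 0.21 and 10.30 ± 0.11), without overlap at either stage. In the compared arrays alone the difference was called at E9.5 (adjusted p = 0.0228 in limma) and at E12.5 (0.43, adjusted p = 0.0345), and without left replicate 3 at E18.5 (0.65, adjusted p = 0.0197).

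Tnnc2 and Tnnt3 were higher in left ventricles at E14.5 and E18.5. At E14.5 Tnnc2 read 8.33, 10.14 and 7.57 in left ventricles, against 5.51, 5.68 and 5.09 in right ventricles (3.25 ± 0.46, SE; limma, adjusted p = 3.14e-05). The right ventricle level lies at the median of all values, so no fold is given. Tnnt3 read 5.68, 6.98 and 5.16 in left and 4.59, 4.50 and 4.53 in right ventricles at that stage (1.40 ± 0.26, adjusted p = 0.000984 in limma). For both genes each left array was above each right array, and left replicate 2 was the highest.

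At E18.5 Tnnc2 read 8.21, 8.92 and 7.23 in left and 5.96, 6.57 and 5.53 in right ventricles (2.10 ± 0.46, adjusted p = 0.0058 in limma). Tnnt3 read 5.49, 6.07 and 5.16 in left and 4.26, 4.93 and 4.28 in right ventricles (1.09 ± 0.26, adjusted p = 0.012 in limma). Neither gene overlapped between the chambers. Without left replicate 2 neither was called at E18.5 (Tnnc2 1.70, adjusted p = 0.0956; Tnnt3 0.84, adjusted p = 0.164, in limma), and without right replicate 1 or 3 Tnnt3 was not called (adjusted p 0.0794 and 0.0574). Fitted on the compared arrays alone, Tnnc2 kept its call at E14.5 (adjusted p = 0.0288 in limma) but not at E18.5 (0.0649), and Tnnt3 was called at neither stage (0.088 and 0.106).

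Markers of skeletal muscle were set beside these 2 genes. The mean of the 20 markers was 5.68, 6.37 and 5.37 on the left arrays at E14.5 and 5.30, 5.22 and 5.22 on the right ones, and 5.41, 5.48 and 5.20 in left against 5.14, 5.25 and 5.16 in right ventricles at E18.5. At E14.5, where 8.51% of all genes were called, 6 of the 20 were called higher in left and 0 lower, among them Myh3, the embryonic myosin heavy chain (3.76 ± 0.52, SE), Myog, a myogenic transcription factor (1.89 ± 0.40), and Mylpf, a fast skeletal myosin light chain (1.63 ± 0.33). At E18.5 1 of 20 was, Mylpf (1.29 ± 0.33), a share near the 4.95% of all genes. The mean of 7 fibroblast markers was also higher in left ventricles at E14.5, 11.95 to 12.08 against 11.28 to 11.33 in right, with 3 of 7 called higher (Col1a1, Col1a2 and Pdgfra) and 0 lower. At E18.5 it was 11.66 to 12.11 in left and 11.38 to 11.61 in right ventricles, with 1 of 7 called higher (Col1a1). The part of fibroblast RNA was not tested.

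On left replicate 2 of E14.5, 17 of the 20 markers were above both other left arrays and 6 were more than 1 unit above their mean. Myog read 8.81 there against 5.79 and 6.01 on replicates 1 and 3, Myf5 read 5.65 against 2.71 and 2.84, and Myh3 read 10.66 against 9.90 and 6.93. The adult fast myosins Myh1 and Myh4, at 3.33 and 3.73, were not raised there. Both lay below the median of all values, 5.41, on every left array of E14.5. Without left replicate 2 Tnnc2 was still called higher in left ventricles (2.52, adjusted p = 0.00146 in limma), as was Tnnt3 (0.88, adjusted p = 0.0257). At E12.5, where replicate 1 of each chamber had a higher marker mean (5.63 in left and 5.56 in right), Tnnc2 was also highest on those arrays, at 6.96 in left and 7.02 in right. Tnnt3 was highest on that replicate in left (5.41) but lowest on it in right (4.86). The part of skeletal muscle RNA in the remaining difference was not tested.

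**Figure D4:**
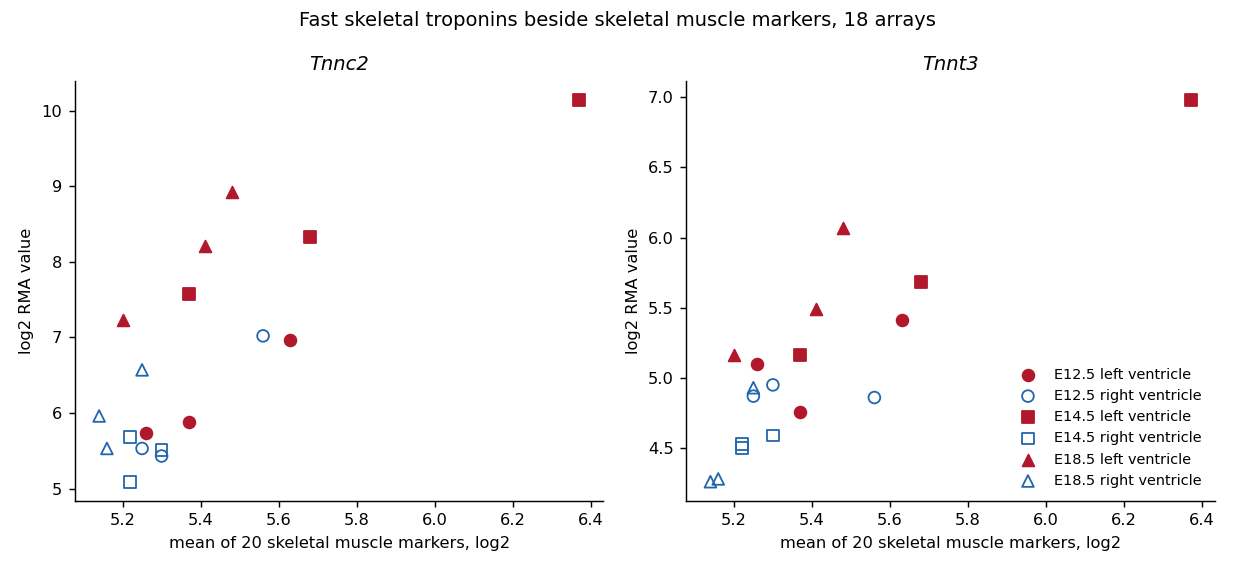
Log2 values of Tnnc2 (left panel) and Tnnt3 (right panel) against the mean of 20 skeletal muscle markers on the 18 ventricle arrays of E12.5, E14.5 and E18.5, filled symbols for left and open symbols for right ventricles. E14.5 left ventricle replicate 2 stands at the upper right, with a marker mean of 6.37, and arrays with higher marker means tend to have higher values of both genes.

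The troponin I and T genes lie in pairs on the mouse genome. In RefSeq (GRCm38.p6) Tnni1 (chr1:135783033-135810989) and Tnnt2 (chr1:135836315-135852268) are 25.3 kb apart with Lad1 between them. Tnnt1 (chr7:4504569-4515975) and Tnni3 (chr7:4518305-4522718) are 2.3 kb apart with no coding gene between. Tnni2 (chr7:142441816-142444410) and Tnnt3 (chr7:142498771-142516213) are 54.4 kb apart with Lsp1 between. The troponin C genes stand alone, Tnnc1 at chr14:31208312-31211729 and Tnnc2 at chr2:164777161-164779734.

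Both members of every pair rose at E8.5. In the adult Tnni1 fell by 8.95 while Tnnt2 differed by 0.06, not called (0.50 and called with arrays scaled to housekeeping genes, adjusted p = 0.00238 in limma). Between them Lad1, which encodes an anchoring filament protein of basement membranes, fell by 1.12 at E8.5 and by 1.1 at E9.5, rose by 1.82 at E18.5 and fell by 1.46 in the adult. Tnni3 rose by 0.61 at E18.5 while its close neighbour Tnnt1 fell by 2.38, and both had risen at E12.5. Tnni2 and Tnnt3 both fell at E12.5 and at day 3, but at E9.5 Tnni2 rose while Tnnt3 fell. Lsp1 between them, a leukocyte actin-binding protein, rose by 1.39 at E8.5, 0.67 at E12.5 and 0.47 at day 3, and fell by 0.35 at E18.5 and 0.85 in the adult. Over the 12 ventricle group means the correlation was -0.44 for Tnni3 and Tnnt1, -0.45 for Tnni1 and Tnnt2, and 0.71 for Tnni2 and Tnnt3, as a description over groups that share stages.

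**Figure D5:**
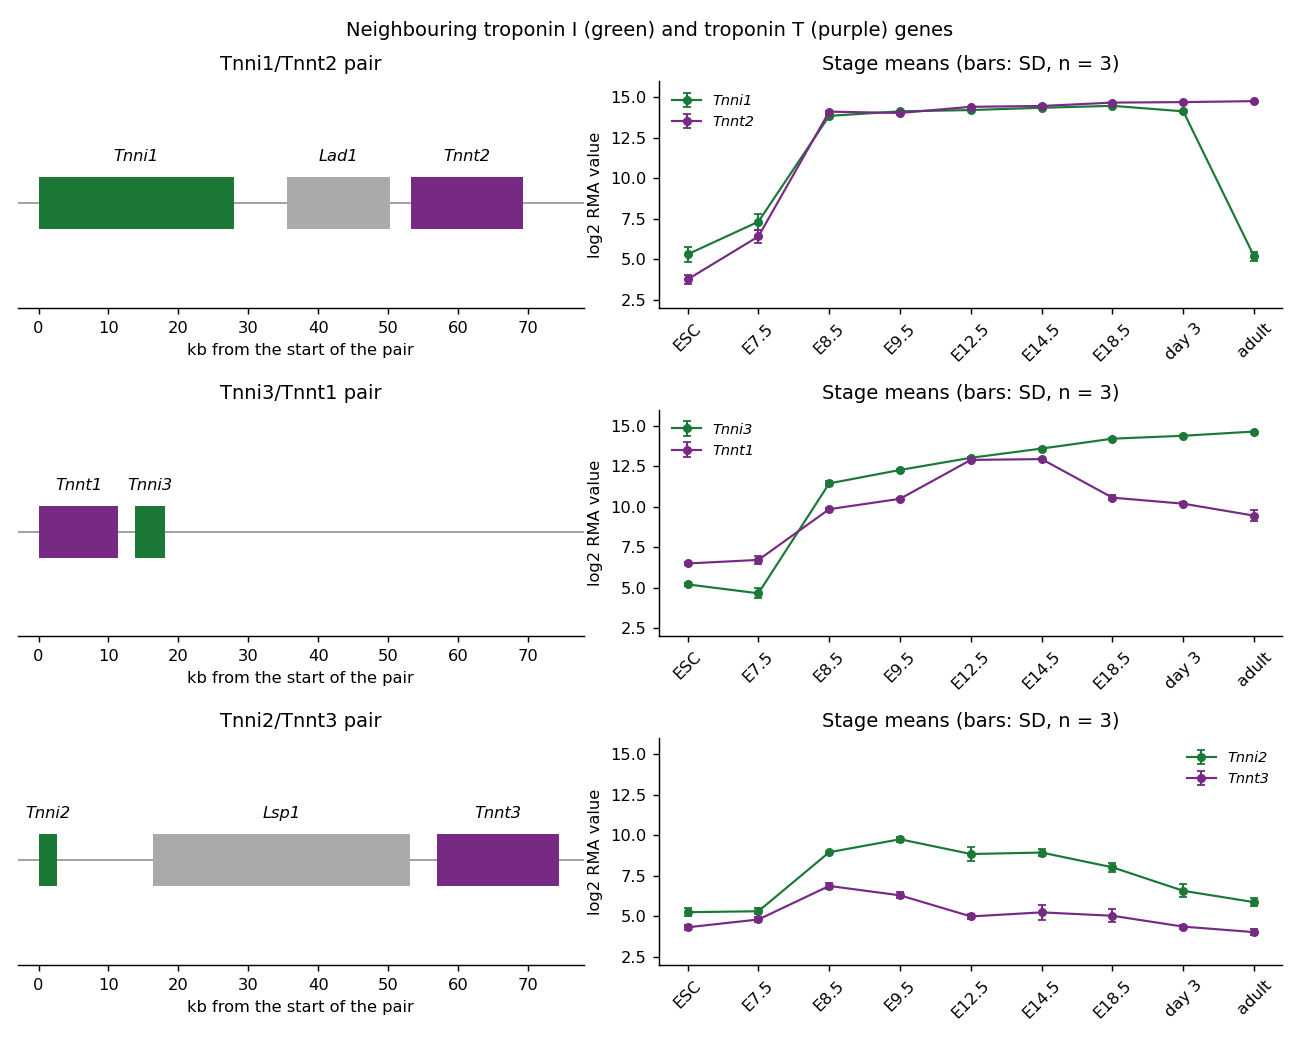
Left, the 3 pairs of neighbouring troponin I (green) and troponin T (purple) genes drawn to scale in kb from the start of each pair, with the coding genes between them in grey. Right, stage means of the pair's genes in log2 units with SD (n = 3), showing Tnni1 leaving Tnnt2 in the adult and Tnnt1 leaving Tnni3 at E18.5.

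Other probe sets of Tnnt2 and Tnni2 were compared with the ones used. A second Tnnt2 set followed it closely (correlation of group means 0.999), with a rise of 7.63 at E8.5. Another and dim one, with values of 3.93 to 7.49, disagreed: it fell by 1.26 at E12.5 (adjusted p = 0.000148 in limma over all 45037 probe sets), where the set used rose by 0.38, and rose by 1.01 at E14.5. For Tnni2 a second set (4.49 to 7.56) was also lower in left ventricles, by 0.72 at E9.5, 1.26 at E12.5 and 0.79 at E14.5, each called. At E18.5 this set also read higher in left ventricles, with means of 6.42 in left and 5.75 in right. In the adult against day 3 neither of the other Tnni2 sets fell: this one differed by 0.28 (adjusted p = 0.151, not called), and the remaining set, between 3.07 and 4.37, rose by 0.39. The mean of the 3 Tnni2 sets differed by -0.01 at that step (adjusted p = 0.965 in limma), so the adult fall of Tnni2 rests on the set used.

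For each troponin gene the genes with the most similar group means were listed, as a description over 15 groups that share stages. Tnni3 was closest to Trdn, the triadin of the calcium release complex (Pearson's r 0.997), and Tnnt2 and Tnnc1 were closest to each other (0.999) and to Myl2, the ventricular myosin light chain (0.998 each). Tnni1 was closest to Lpar3 (0.987), a lysophosphatidic acid receptor, and over the 12 ventricle groups alone their r was 0.995. Tnnt1 was closest to Nbdy (0.959), followed by Vegfc among the next genes (0.943), and Tnni2 was closest to B4galt4 (0.942), with the atrial myosin light chain Myl7 at 0.923. Tnnt3 and Tnnc2 had the least close neighbours, Megf11 (0.897) and Serpinb3a (0.848). Within the family, r over the 12 ventricle groups was 0.95 for Tnni3 with Tnnt2 and -0.87 for Tnni3 with Tnni2.

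The partners of troponin on the thin filament were counted beside it. Of 15 measured genes for actins, tropomyosins, tropomodulins, leiomodins and nebulins, 10 rose and 3 fell at E8.5 (median change 1.94), where 48.6% of all genes were called in either direction. Among them Acta1 (skeletal alpha-actin, 7.29 ± 0.17), Nebl (nebulette, 6.97 ± 0.17), Actc1 (cardiac alpha-actin, 6.79 ± 0.09) and Tmod1 (the pointed-end cap tropomodulin, 5.07 ± 0.11; SE) rose most. At day 3, 7 of the 15 rose and 0 fell by limma, against 20.2% of all genes called. In the adult against day 3, 6 rose and 4 fell, against 48.8% of all genes called: Tmod4 rose by 2.47 and Lmod2 by 1.87, while the tropomyosins Tpm2 fell by 0.61, Tpm3 fell by 0.98 and Tpm4 fell by 1.18. Tpm2 was also lower in left ventricles at E9.5 (by 0.87) and E12.5 (by 0.45), as Tnni2 was.

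Regulators of troponin RNA and protein were counted in the same way. Of 11 factors that regulate splicing, including that of Tnnt2 RNA, 9 rose and 1 fell at E8.5 (48.6% of all genes called), with Rbm24 up by 3.17 and Rbm20 by 2.57. In the adult against E9.5, where 74.6% of all genes were called, 5 rose and 4 fell: Rbfox1 rose by 4.54 and Mbnl1 by 2.21, and the repressors Ptbp1 and Ptbp2 fell by 2.07 and 2.39. Of 15 kinase and phosphatase genes that act on troponin or its kinases, 7 rose and 2 fell at E8.5, and in the adult against E9.5 5 rose and 7 fell, shares near those of all genes (48.6% and 74.6%). Prkaca, the catalytic subunit of protein kinase A, which phosphorylates cardiac troponin I, rose by 1.37 over that course.

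Of 14 genes of thyroid hormone signalling and muscle transcription, 10 rose and 0 fell at E8.5 (48.6% of all genes called), and 4 rose and 3 fell in the adult against day 3, a share near the 48.8% of all genes. Rxrg, a partner of thyroid hormone receptors, rose by 2.15 at that step, Nfix by 0.79, and the receptor Thra fell by 0.71. At E12.5, when Tnnt1 rose, 5 of the 14 rose and 2 fell, against 38.1% of all genes called. Among them Nfix rose by 3.44 ± 0.12 and Dio2, which activates thyroid hormone, by 1.51 ± 0.22 (SE). In left against right at E9.5, where Tnni3 was higher in the left ventricle, 1 of the 14 was called, against 3.5% of all genes. This was Tbx5, a transcription factor of the left ventricle and atria, higher in left by 1.41 ± 0.14 (SE, adjusted p = 2.22e-09 in limma). At E12.5, where Tnni3 was not called, Tbx5 was higher in left by 0.86 ± 0.14. The part of these genes in the courses of the troponin genes was not tested.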

How the data were processed

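Gene expression was measured on 45 arrays. The deposited table holds log2 values that the authors made with RMA, per the submitters' processing notes; the version is not given in the sources used here. Of 45101 probe sets, 64 controls were left out; 34945 had 1 gene in the platform annotation, 932 several and 9160 none. The probe set with the highest mean stood for each of 18193 genes. No detection calls or dim-probe filter entered the main tests, and the number of arrays limits the precision.

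Stages were compared with limma 3.58.1 (R 4.3.3), left and right ventricles of the same number averaged (27 values, 18 residual degrees of freedom), and left with right in a fit of 45 arrays (30 residual degrees of freedom). Tests were two-sided with Benjamini-Hochberg adjustment over 18193 genes, called at 0.05, and were tested on simulated data. The labels call the replicates biological triplicates. The p-values rest on a gene's spread between replicates as shared by all groups of a fit, and not on the compared replicates alone. In the main fits that spread joins cell cultures, pools of embryos or hearts, and individual hearts. The labels do not say that left and right ventricles of a number share hearts. Only at E12.5 did deviations of all 3 pairs correlate above 0.1 (0.271, 0.321 and 0.369), and there the replicate block changed no call.

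All 8 troponin genes were described. From each other list the called genes with the largest changes were named, and further list genes were named after their values were seen. The members and lists were chosen with earlier results of these data known. Of the listed genes 128 matched and the others were not analysed here. Alternatives covered moderation, the groups fitted, a filter on dim genes, probe-set averaging, scaling to 9 housekeeping genes, the replicate block, single ventricles and leaving out replicates.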

Additional observations from a re-analysis of the deposited data

Results flagged for a closer look

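In 5 troponin genes the difference between left and right ventricles changed with the stage (F-test over 6 stages in limma, adjusted over all genes). For Tnnc2 the 6 differences spanned 3.792 log2 units (adjusted p = 0.000497), from -0.54 at day 3 to 3.25 at E14.5. For Tnni2 they spanned 2.84 (adjusted p = 0.000698), from -1.98 at E12.5 to 0.86 at E18.5. For Tnnt3 they spanned 1.687 (adjusted p = 0.0122), for Tnnt1 1.056 (adjusted p = 0.0401) and for Tnni3 1.014 (adjusted p = 4.71e-06). For Tnni1, Tnnt2 and Tnnc1 the test was not passed (adjusted p = 0.685, 0.915 and 0.992 in limma).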

How the results depend on the processing

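The following are counts of troponin genes called, beside counts of all genes called where given. No count over all genes was made for the requirement of a 2-fold difference. With at least a 2-fold difference also required, 1 was called at E9.5 against E8.5, 2 at E12.5 against E9.5, 0 at E14.5 against E12.5, 1 at E18.5 against E14.5, 1 in the adult against day 3, 1 in left against right at E9.5 and 0 in the mean left-right difference. Scaling to housekeeping genes gave 2 at E14.5 (3042 of all genes, against 2415 unscaled) and 5 at E18.5 (7120 of all genes, against 5563), and reversed no troponin call. In the adult against day 3 it added calls of Tnnt2 (0.499) and Tnnc1 (0.467) and ended that of Tnni2 (-0.259). It moved the median of all genes by 0.435 in the adult against day 3 and by 0.745 against E9.5. The housekeeping genes were not level themselves. Before scaling, 8 of the 9 were called lower in the adult against day 3 (median -0.396, 48.8% of all genes called). Against E9.5 8 of the 9 were called lower as well (median -0.657, 74.6% of all genes called). The share of higher calls among all genes, scaled and then unscaled, was 67.1% and 49.1% at E7.5, 56.8% and 42.1% at E8.5, 61.4% and 47.7% at E9.5, 78.7% and 54.1% at E14.5, 74.4% and 38.7% at E18.5, 60.3% and 49.1% at day 3, 85.4% and 45.8% in the adult against day 3, and 81.8% and 55.8% against E9.5. In left against right it was 32.4% and 49.8% at E14.5 and 38.1% and 57.3% at E18.5. Left ventricles alone gave 2 at E14.5 (1175 of all genes, against 2415 in the main fit), and right ventricles alone 1 at day 3 (2824 of all genes, against 3682). Fits of the compared groups alone gave 5 at E18.5 (6522 of all genes, against 5563 in the main fit) and 6 at day 3 (5468 against 3682). In left against right they gave 4 at E9.5 (586 of all genes, against 637) and 2 at E12.5 (576 against 230). They gave 1 at E14.5 (509 against 1548) and 0 at E18.5 (135 against 900), so the counts over all genes also moved with this setting. Without the arrays with raised marker lists, a choice made after seeing the data, left against right at E9.5 gave 4 (991 of all genes, against 637). In stage comparisons that setting leaves some replicates with 1 ventricle, so it also changes the mix of left and right.

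Leaving out single replicates gave 5 to 6 called at E7.5, 8 to 8 at E8.5, 4 to 5 at E9.5, 4 to 5 at E12.5, 1 to 2 at E14.5, 3 to 3 at E18.5, 2 to 4 at day 3, 2 to 3 in the adult and 7 to 7 in the adult against E9.5. In left against right it gave 1 to 2 at E9.5, 1 to 1 at E12.5, 2 to 3 at E14.5, 0 to 4 at E18.5, 0 to 0 at day 3 and in the adult, 4 to 4 in the mean and 4 to 5 in the F-test. At E18.5 it was 0 without left replicate 2, 4 without left replicate 3 and 1 without right replicate 1 or 3. At E9.5 it was 1 without left replicate 2 or 3 or any right replicate. In the adult it was 2 without day 3 replicate 1, and at E14.5 2 without E12.5 replicate 1 or E14.5 replicate 3. Counts over all genes are not given for single replicates left out, so whether such a swing is particular to the troponin genes cannot be told. Tnnt2 at E12.5 turned to -0.17 (adjusted p = 0.299 in limma) with the mean of its probe sets, which include the dim set that fell, and Tnnt3 at day 3 to 0.011 (adjusted p = 0.982) in right ventricles alone. With the replicate block 136 of 136 troponin results kept their call, for example Tnni3 at E9.5 in left against right at 0.963 (adjusted p = 3.37e-06). The causes of the other changes were not tested.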
